A study of Gallus gallus with 12 samples.

Results

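The nuclear genome encodes most subunits of the respiratory chain and the ATP synthase, and 66 of the 24356 annotated chicken genes were described here as this set. They were chosen by gene symbol alone, as every gene whose symbol begins with NDUFA, NDUFB, NDUFC, NDUFS or NDUFV and a digit, with UQCR, COX4 to COX8 or ATP5, or that is *SDHA*, *SDHB*, *SDHC* or *SDHD*. Complex I accounted for 31 of them, complex II for 4, complex III for 8, complex IV for 10 (*NDUFA4* included) and the ATP synthase, complex V, for 13. The symbols *CYC1*, *COX4I1*, *COX6B1* and *COX8A* found no match and were not analysed here, although the RefSeq gene table gives *COX4I2*, the symbol in the files, as a synonym of *COX4I1*. The set also holds *ATP5S*, the coupling factor B, and *COX7A2L*, a factor of respiratory supercomplexes, which match by name but are not classical subunits.

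Poly(A) RNA-seq of DT40, a chicken B cell line, covered 3 independent cell populations (replicates 1 to 3) of each of 4 lines. These were the wild type (WT), *timeless*, *ddx11* and *fancj*. Timeless is a component of the replisome, and DDX11 and FANCJ (encoded by *BRIP1*) are DNA helicases. The *timeless* line carries CRISPR-Cas9 disruptions of both alleles in exon 1, *ddx11* lines were made by CRISPR-Cas9 in exon 4 or by conventional targeting, and *fancj* is an established line. The sources do not say which clone was sequenced, and differences between clones cannot be told apart from those due to a mutation.

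Electrons from NADH enter the chain at complex I and those from succinate at complex II, both pass to ubiquinone, and complexes III and IV carry them on to oxygen while pumping protons that drive the ATP synthase. All complexes except complex II combine nuclear subunits, imported from the cytosol, with subunits encoded on mitochondrial DNA. The question here was whether RNA of the nuclear subunits followed that of the 13 mitochondrially encoded subunits, which was higher in *timeless*.

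Libraries held 13406041 to 50160512 expected counts in all. *TIMELESS* itself was lower in *timeless* than in WT (log2 fold change -0.78, edgeR adjusted p = 0.018) and *DDX11* in *ddx11* (-1.30, adjusted p = 0.026). *BRIP1* stood at 7.81, 8.47 and 1.23 TPM (transcripts scaled to the same total in each library) in the libraries labelled *fancj* and at 5.16 to 8.52 TPM in WT. Thus 2 of these 3 libraries held it at the WT level, and its RNA did not bear out the label there. The sources do not say whether the disruption lowers *BRIP1* RNA, so its level alone does not settle the label. The remaining library, *fancj* replicate 3, stood apart, and the median log2 fold changes in *fancj* are given with and without it. *TIMELESS* was at 30.48, 21.29 and 8.88 TPM in *fancj*, 21.39 to 24.27 TPM in *timeless* and 34.16 to 48.4 TPM in WT. Its log2 fold change in *fancj* was -1.04 against WT (edgeR adjusted p = 0.12) and -0.26 against *timeless* (edgeR adjusted p = 0.72), neither called. A low *TIMELESS* level thus does not separate the *timeless* libraries from those labelled *fancj*. All 12 B cell markers of the list used had a mean of at least 1 TPM, with a summed level of 1151 to 2006 TPM in WT, 584.2 to 1278 TPM in *fancj*, 1304 to 1561 TPM in *ddx11* and 890.4 to 1341 TPM in *timeless*. Of the lists for other cells, the 5 T cell symbols matched 7 entries, since some symbols have more than 1 entry. Of these, 4 entries, of *CD3D* and *CD8A*, had a mean of at least 1 TPM, while *CD3E*, *CD4* and *ZAP70* were under 1 TPM. The T cell entries summed to 157.4 to 220.8 TPM in WT, 52.7 to 126.5 TPM in *timeless*, 60.9 to 101.5 TPM in *ddx11* and 60.0 to 90.9 TPM in *fancj*. In *ddx11* against WT, 1 of the 4 entries tested was called, an entry of *CD3D* (-1.43, edgeR adjusted p = 0.0091), and the 4 ran from -1.43 to 1.80. In *timeless* against *ddx11*, 1 of 4 was called, an entry of *CD8A* (-4.60, edgeR adjusted p = 0.031), and the 4 ran from -4.60 to 0.46. The summed levels of the myeloid, erythroid and fibroblast lists stayed at or below 99.0, 50.8 and 24.0 TPM, with *CSF1R*, *HBA1*, *PDGFRB* and *COL3A1* under 1 TPM. In *fancj* against WT *CSF1R* (myeloid) and *HBBA* (erythroid) were higher (both adjusted p = 0.045, or 0.043 and 0.054 without *fancj* replicate 3) and *COL1A1* (fibroblast) lower (-1.78, adjusted p = 0.037). The part of these differences in the results on respiratory chain genes was not tested.

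All 66 genes were expressed, and all passed the limit on low values (a mean of 1 TPM or more in either line compared) in all 6 comparisons. The median over genes of the mean TPM was 166.3 in complex I, 265.2 in complex II, 291.6 in complex III, 486.5 in complex IV and 272.5 in complex V. TPM is a level per length, so these values compare genes. In complex I the accessory subunits *NDUFA1* and *NDUFB2* marked the lowest and the highest mean (33.5 and 395.0 TPM). In complex II these were *SDHB*, the iron-sulfur subunit (165.3 TPM), and *SDHC*, a membrane anchor (546.0 TPM), and in complex III *UQCRQ* (90.1 TPM) and *UQCRH*, the hinge protein (1097 TPM). Complex IV ran from *COX7A2L* (76.1 TPM) to *COX5B* (1208 TPM), and complex V from *ATP5S* (11.8 TPM) to *ATP5F1B*, the catalytic beta subunit (924.6 TPM). *ATP5S*, with 52.7 to 250 counts per library, was the least deeply counted of the set, and the other 65 genes had at least 164 counts in every library.

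WT cells held these levels closely. The coefficient of variation over the 3 WT libraries had a median of 6.35% and ranged from 0.701% (*ATP5A1Z*, the alpha subunit of the ATP synthase) to 23.0% (*NDUFA8*). Over 11 libraries, leaving out *fancj* replicate 3, the highest value of a gene was a median of 1.49 times its lowest, from 1.18 times (*COX4I2*) to 3.27 times (*SDHA*, the flavoprotein subunit that oxidises succinate). With all 12 libraries that median was 2.10 times. The 55 genes whose highest value fell in *fancj* replicate 3 and the 35 whose lowest value fell in *timeless* replicate 2 show where most of this spread lay. Such extremes were not counted over all genes, so whether they are particular to this set is not known.

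The summed RNA of the nuclear subunits was not higher in the line in which mitochondrially encoded RNA was. Mitochondrially encoded subunits summed to 29294, 21828 and 28953 TPM in WT and to 46190, 93270 and 72415 TPM in *timeless*, or 26692 ± 4216 against 70625 ± 23591 (SD, n = 3), a 2.65-fold higher mean with no overlap. The 66 nuclear subunits summed to 18546, 18469 and 18666 TPM in WT and to 17315, 15505 and 18214 TPM in *timeless*. Here every *timeless* library lay below every WT library, with means of 17011 ± 1380 and 18560 ± 99.3 TPM (SD, n = 3), or 0.917 times WT. In bulk RNA, fewer cells that express a gene and less RNA per cell cannot be told apart. The libraries were made from poly(A) RNA, and whether capture of mitochondrially encoded RNA differed between the lines was not tested.

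TPM has a fixed total, so a rise in mitochondrial RNA lowers all other values. Rescaled without the mitochondrially encoded genes, the nuclear subunits summed to 18153, 17100 and 19636 TPM in *timeless* and to 19105, 18882 and 19222 TPM in WT, and the lines then overlapped. The ratio of mitochondrially encoded to nuclear subunit TPM, which does not depend on the total, was 1.58, 1.18 and 1.55 in WT and 2.67, 6.02 and 3.98 in *timeless*. Its mean was 4.22 ± 1.69 in *timeless* and 1.44 ± 0.222 in WT (SD, n = 3), 2.94 times higher with no overlap, and 1.71 ± 0.312 in *ddx11* and 1.58 ± 0.476 in *fancj*, both overlapping WT. The *timeless* library with the most mitochondrial RNA, replicate 2, was also the one with the least nuclear subunit RNA. Replicate 3, however, had more of both than replicate 1.

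**Figure D1:**
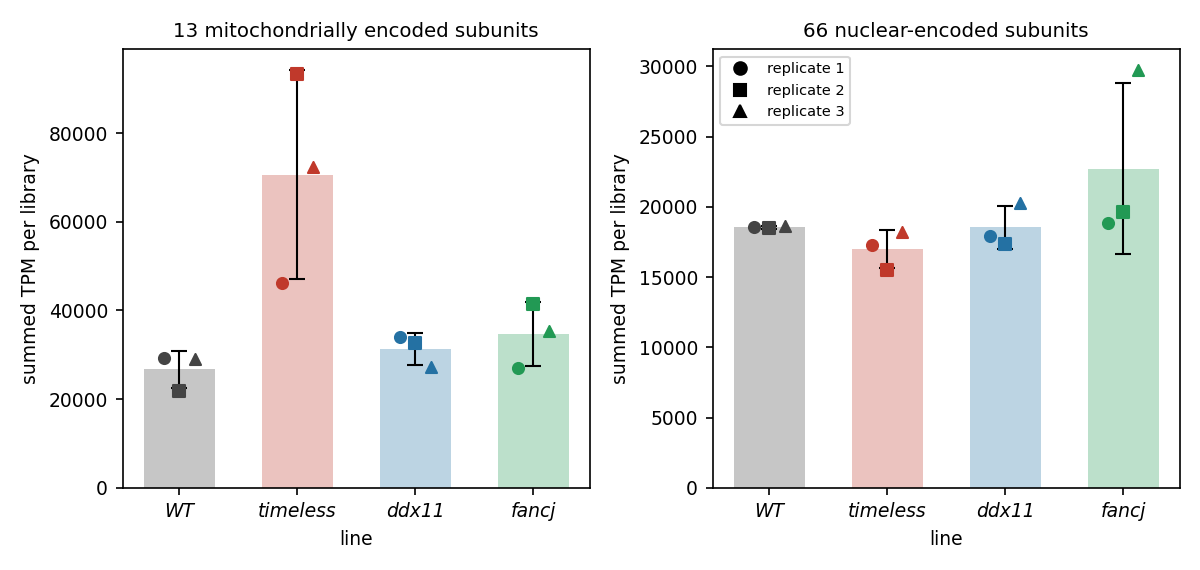
Summed TPM per library (y axis, linear from 0) of the 13 mitochondrially encoded subunits (left) and the 66 nuclear-encoded subunits (right) in the 4 lines; bars are means, error bars SD (n = 3), and symbols mark replicates. The mitochondrially encoded sum is higher in all 3 *timeless* libraries (46190 to 93270) than in any other library, whereas the nuclear sum stands out only in *fancj* replicate 3 (29739).

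Gene by gene, none of the 66 nuclear subunits was called higher in *timeless* than in WT, and 3 were called lower. These were *NDUFV2*, *SDHA* and *NDUFA4*, all lower at an edgeR adjusted p under 0.05. Across all 11653 genes tested 4.31% were called higher and 3.89% lower, so the share of subunits called lower was near that of all genes. At an unadjusted p under 0.05 there was 1 subunit higher and 6 lower, and DESeq2 called 4, none of them higher. Of all 11653 genes tested, 1334 were higher and 1194 lower at that limit, and DESeq2 called 1499, so these subunit counts do not exceed the background. The median log2 fold change of the 66 genes was 0.02, beside 0.01 over all genes tested. Of the 13 mitochondrially encoded genes, 12 were called higher, with a median log2 fold change of 1.5, from 0.94 (*ND3*, adjusted p = 0.066) to 1.77 (*ATP6*). All 13 had every *timeless* library above every WT library, but their calls depended on single libraries. None was called without WT replicate 2 or without WT replicate 3, 5 without WT replicate 1, and 6 without *timeless* replicate 3. Calls over all genes also fell, from 955 to 406, 350, 623 and 667 in these 4 fits in the same order. Over the 6 fits that each left out a library, the median of the 13 genes stayed between 1.29 and 1.77.

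*NDUFV2*, a complex I subunit of the NADH-oxidising module that carries an iron-sulfur cluster, stood at 271.69, 203.66 and 237.2 TPM in WT and at 140.11, 121.5 and 124.55 TPM in *timeless*. All *timeless* values were below all WT values, and those of *ddx11* (214.0 to 224.01 TPM) and *fancj* (234.9 to 357.94 TPM) lay above them. Its log2 fold change in *timeless* was -0.82 (SE 0.15, edgeR adjusted p = 0.013). The call was kept in 5 of the 6 fits that each left out a library, with an adjusted p of 0.066 without WT replicate 3. *NDUFV1*, its partner in the same module, which binds NADH and FMN, had 254.37, 267.62 and 288.66 TPM in WT and 302.7, 331.22 and 331.81 TPM in *timeless*. Its *timeless* values were all above WT, with a log2 fold change of 0.32 that was not called (SE 0.16, adjusted p = 0.28). The ratio of *NDUFV2* to *NDUFV1* within a library, which is free of the scaling between libraries, was 1.07, 0.761 and 0.822 in WT and 0.463, 0.367 and 0.375 in *timeless*. In *ddx11* and *fancj* the mean ratio was 0.961 ± 0.0717 and 1.05 ± 0.227 (SD, n = 3), so only the *timeless* libraries stood below the WT range.

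*SDHA* had 261.42, 289.57 and 291.59 TPM in WT and 185.42, 119.9 and 149.14 TPM in *timeless*, again without overlap (log2 fold change -0.83, SE 0.18, edgeR adjusted p = 0.024). It was called in 3 of the 6 fits that left out a library, and its adjusted p was 0.10 without WT replicate 2, 0.11 without WT replicate 3 and 0.057 without *timeless* replicate 3. The other subunits of complex II did not move with it. *SDHB* (-0.02), *SDHC* (0.05) and *SDHD* (0.24), the second membrane anchor, had adjusted p-values of 0.43 or more and overlapped WT in TPM. The ratio of *SDHA* to *SDHB* was 1.74 ± 0.257 in WT and 0.979 ± 0.167 in *timeless* (SD, n = 3), and all *timeless* ratios (0.798 to 1.13) lay below those of the other 9 libraries (1.38 to 2.10). *SDHA* had counts that were not whole in some libraries, as had 8 other genes of the set, so part of its reads were shared with another locus and its level is less certain.

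*NDUFA4*, once counted with complex I and now assigned to complex IV, had 714.73, 653.7 and 667.66 TPM in WT and 448.8, 343.61 and 433.46 TPM in *timeless*. No *timeless* value reached the WT range. The log2 fold change was -0.68 (SE 0.16, edgeR adjusted p = 0.039), and the call was kept in 2 of the 6 fits that left out a library, with adjusted p-values of 0.088 to 0.14 in the other 4. Relative to *COX5A*, a complex IV subunit on another chromosome, it stood at 2.86 ± 0.061 in WT and 1.91 ± 0.271 in *timeless*.

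The subunits with the lowest fold changes in *timeless* shared a chromosome. The GRCg7b gene table placed 61 of the 66 genes, and 7 of them on a single chromosome, which was singled out after the values were seen because it carries 190 of the 354 placed genes that were lower in *timeless* (53.7%) but 8.2% of the placed genes tested. Those 7 were *NDUFV2*, *SDHA*, *NDUFA4*, *COX6C* (-0.63, adjusted p = 0.062), *NDUFS6* (-0.59, adjusted p = 0.18), *UQCRB* (-0.44, adjusted p = 0.23) and *NDUFB9* (-0.38, adjusted p = 0.23). All 7 had every *timeless* library below every WT library in TPM, as did 406 of the other 679 genes tested on that chromosome. Over all genes tested, 15.7% did. The median log2 fold change of the 7 was -0.63. The other 679 genes tested on that chromosome had a median of -0.56, with 187 called lower and 12 higher, and the 7682 genes on other chromosomes had a median of 0.01. The 54 subunits placed on other chromosomes had a median of 0.04, from -0.34 to 0.92, and none was called by edgeR or DESeq2 (at an unadjusted p under 0.05, 1 was higher and none lower). The cause of the lower level along this chromosome was not tested.

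The pattern was present in each *timeless* library. On the log2 CPM scale (counts scaled to library size by TMM) relative to the WT mean, the 7 subunits had medians of -0.65, -0.99 and -0.49 in *timeless* replicates 1 to 3, and the other 679 genes of the chromosome -0.53, -0.70 and -0.64. The remaining 59 subunits had medians of -0.07, -0.22 and 0.21 in the same libraries. In summed TPM the 7 gave 2937, 2603 and 2742 in WT and 1840, 1427 and 1796 in *timeless*, which do not overlap, whereas the 59 gave 15609, 15866 and 15923 in WT and 15474, 14078 and 16418 in *timeless*, which do. In *ddx11* and *fancj* the 7 subunits had median log2 fold changes against WT of -0.17 and 0.51 (the latter -0.10 without *fancj* replicate 3), and edgeR and DESeq2 called none of them, at an unadjusted p under 0.05 either.

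**Figure D2:**
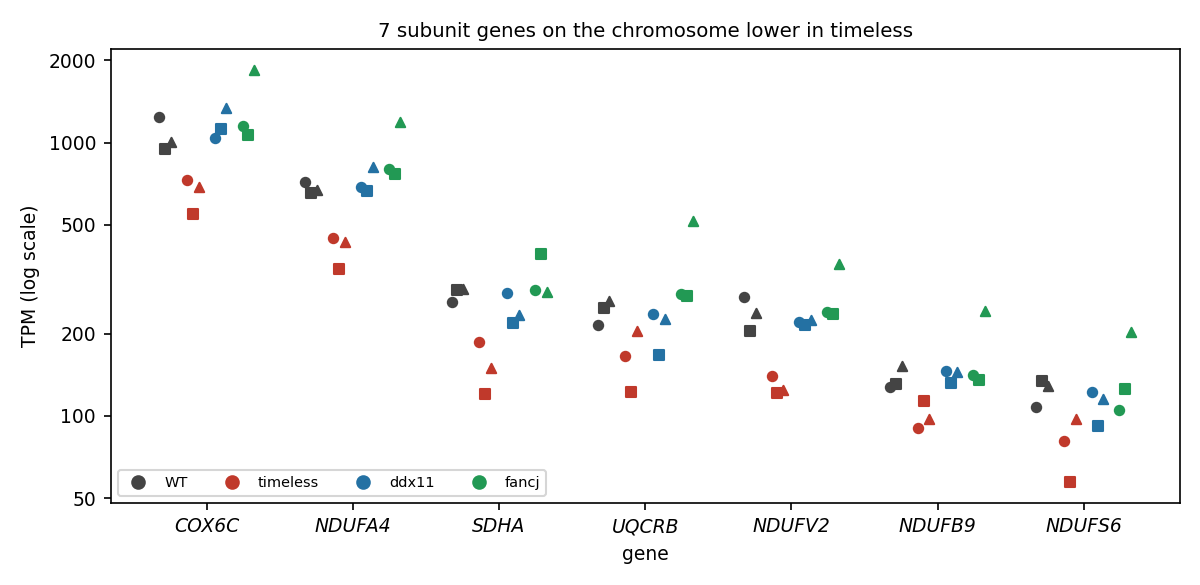
TPM (y axis, log scale) of the 7 subunit genes placed on the chromosome lower in *timeless*, for each of the 3 libraries (circle, square and triangle for replicates 1, 2 and 3) of WT, *timeless*, *ddx11* and *fancj*. For each gene the 3 *timeless* libraries lie below the 3 WT libraries, and *fancj* replicate 3 is the highest library for all of them except *SDHA*.

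*COX6C*, a complex IV subunit of high level, had 1238.28, 943.82 and 1003.28 TPM in WT and 729.59, 549.77 and 689.42 TPM in *timeless*. Its values did not overlap, and DESeq2 called it lower (adjusted p = 0.012). *UQCRB*, which sits at the ubiquinone-binding part of complex III, had 215.46 to 262.77 TPM in WT and 121.88 to 205.02 TPM in *timeless*, and its ratio to *UQCRH* was 0.225 ± 0.0129 in WT and 0.169 ± 0.0192 in *timeless* (SD, n = 3). The accessory complex I subunits *NDUFS6* and *NDUFB9* had 107.82 to 134.57 and 127.86 to 151.57 TPM in WT, and 57.13 to 96.99 and 89.87 to 113.66 TPM in *timeless*. In these 4 genes, as in the 3 called, the lowest of the 12 libraries was a *timeless* library.

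Among the other catalytic and core subunits, *timeless* and WT differed by less than the test could call. In complex I *NDUFS1*, which holds several iron-sulfur clusters, had a log2 fold change of -0.34 (adjusted p = 0.32). *NDUFS7*, at the ubiquinone site, had 0.01, and *NDUFS3* and *NDUFS8* had -0.02 and 0.09. In complex III the core proteins *UQCRC1* and *UQCRC2* had 0.00 and -0.20, and the Rieske iron-sulfur protein *UQCRFS1* had -0.12. In complex IV *COX5A* and *COX5B* had -0.08 and 0.26, and in complex V *ATP5F1B* had -0.17 and *ATP5A1Z* -0.25. The standard errors of these values ran from 0.14 to 0.19, and every adjusted p was 0.32 or more. By complex, the median log2 fold change of all subunits in *timeless* was 0.04 in I, 0.02 in II, -0.10 in III, 0.05 in IV and 0.05 in V.

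The highest fitted changes in *timeless* were *ATP5S* (0.92, SE 0.32, edgeR adjusted p = 0.13), *COX6A1* (0.33, adjusted p = 0.26) and *NDUFV1*. *ATP5S* had 6.87, 8.35 and 8.52 TPM in WT and 10.96, 20.24 and 13.34 TPM in *timeless*. These did not overlap, although the gene is of low level and has counts that were not whole. In deposited TPM, 5 subunits had every *timeless* library above every WT library (11.8% of all genes tested did) and 11 below (15.7% of all genes). The 5 were *ATP5S*, *COX6A1*, *COX5B*, *NDUFB7* and *NDUFV1*, and the 11 were the 7 of the shared chromosome with *COX5A*, *COX7B*, *NDUFC2* and *ATP5F1B*. Of the paralogous c subunits of the ATP synthase, *ATP5MC1* stood at 0.480 to 0.516 times *ATP5MC3* in WT and at 0.448 to 0.482 times in *timeless*, where 2 of the 3 libraries were below the WT range.

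**Figure D3:**
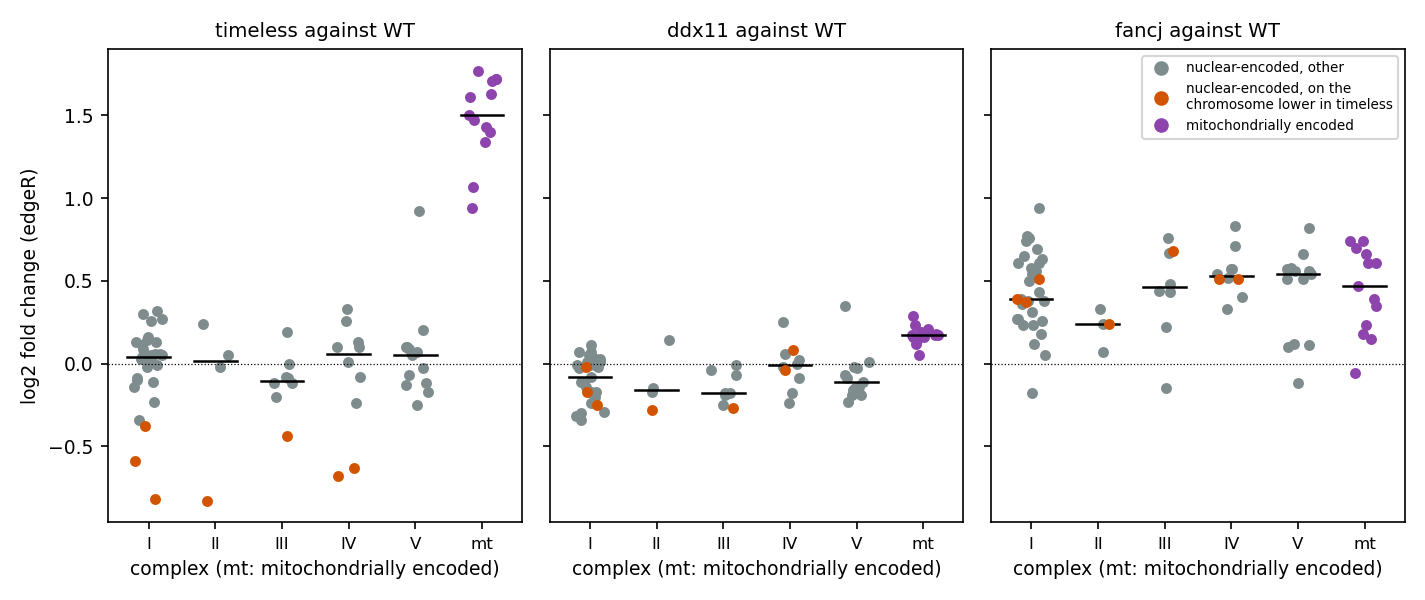
Log2 fold change against WT (y axis, edgeR, n = 3 libraries per line) of each subunit gene by complex (x axis) in *timeless*, *ddx11* and *fancj*; grey points are nuclear-encoded subunits, orange points the 7 on the chromosome lower in *timeless*, purple points (mt) the 13 mitochondrially encoded subunits, and lines are medians. In *timeless* the purple points have a median of 1.5 and the orange points of -0.63, while in *fancj* the nuclear subunits lie mostly above 0 (median 0.51), which rests on 1 library.

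In *ddx11* no nuclear subunit was called against WT by edgeR or by DESeq2, where edgeR called 1.41% of all genes tested higher and 1.21% lower. At an unadjusted p under 0.05 there were 0 higher and 2 lower, *NDUFS1* (-0.34, adjusted p = 0.34) and *NDUFS3* (-0.29, adjusted p = 0.43). Of all 11470 genes tested, 698 were higher and 574 lower at that limit. The median log2 fold change was -0.09, beside 0.00 over all genes, and 49 of the 66 were fitted below 0. The lowest fitted values were those of *NDUFS1*, *NDUFA8* (-0.32) and *NDUFV1* (-0.30), and *ATP5S* (0.35), *COX5B* (0.25) and *SDHD* (0.14) had the highest. The subunits summed to 17959, 17390 and 20263 TPM, a mean of 18537 ± 1521 (SD, n = 3), or 0.999 times WT, with the WT libraries lying between the *ddx11* libraries. In TPM, 3 subunits lay above every WT library (10.7% of all genes did) and 2 below (3.66%). Those above were *NDUFB3*, *ATP5S* and *COX5B*, and *NDUFV1* was among those below. None of the 13 mitochondrially encoded genes was called by edgeR or DESeq2, nor at an unadjusted p under 0.05 (median 0.17).

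In the libraries labelled *fancj* the fitted values of 63 of the 66 subunits were above 0 against WT, with a median log2 fold change of 0.51 beside 0.03 over all genes. None was called by edgeR or DESeq2, and none had an unadjusted p under 0.05, where edgeR called 2.87% of all genes higher and 1.41% lower. This median rests on *fancj* replicate 3. Without it the median was -0.10, and 14 subunits were fitted above and 52 below 0, again with none called by edgeR and 4 at an unadjusted p under 0.05. The subunits summed to 18849, 19614 and 29739 TPM in *fancj*, a mean of 22734 ± 6079 (SD, n = 3). Replicates 1 and 2 alone had a mean of 19232 TPM, 1.04 times WT.

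In *fancj* replicate 3 the median subunit stood 1.13 above the WT mean on the log2 CPM scale, where the median of all genes was -0.10. In TPM, 57 subunits exceeded every WT library and both other *fancj* libraries in it. How many of all genes did so was not counted. Complexes I, III and IV summed to 9240, 4737 and 8874 TPM in it, against 5533 to 5800, 2851 to 3033 and 5103 to 5223 TPM in the other *fancj* libraries. Complex II differed less, with 1453 TPM against 1300 and 1344 TPM. The shift varied with gene length. Spearman's rho between length and the log2 difference from WT was -0.56 over the 66 subunits and -0.31 over 11379 genes in this library, both across genes of 1 library and given as description, and 0.043 and 0.20 for the subunits in replicates 1 and 2. A negative rho over the subunits was not particular to this library, since *ddx11* replicates 2 and 3 had -0.43 and -0.49 and *timeless* replicate 3 had -0.21. The shortest 22 subunit genes had a median of 1.25 and the longest 22 of 0.83. Subunit genes are short, with a median length of 928.5 bases against 2036 over all genes whose mean reached 1 TPM. The same library also had the lowest *BRIP1* level, so the shift with gene length and the labelled genotype cannot be told apart in it. A low level there was not particular to *BRIP1*. *NRF1* (4.12 TPM) and *TIMELESS* (8.88 TPM) were also at their lowest of the 12 libraries in it, and how many of all genes were was not counted.

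**Figure D4:**
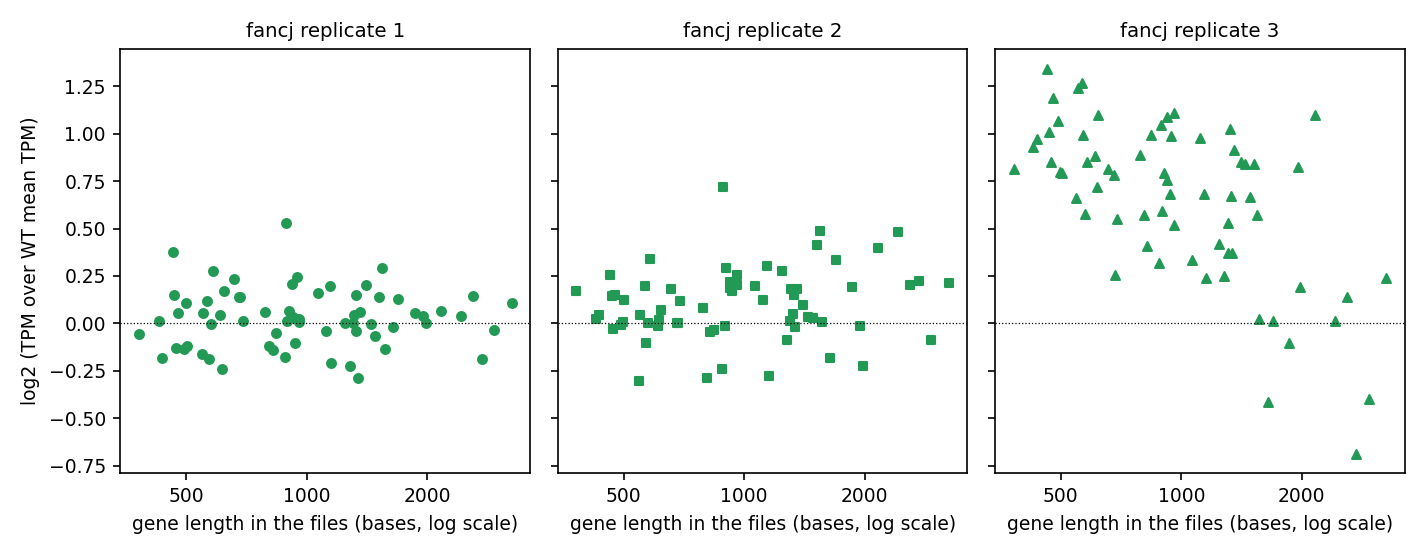
Log2 ratio of TPM to the WT mean (y axis) against gene length as given in the files (x axis, log scale) for the 66 nuclear-encoded subunits in *fancj* replicates 1, 2 and 3. Points in replicates 1 and 2 scatter around 0 at all lengths, while in replicate 3 the shorter genes lie highest and the lowest points are long genes. Spearman's rho in replicate 3 was -0.56 for log2 CPM differences from the WT mean, not for the TPM ratios plotted.

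Named subunits in *fancj* followed the same split. *NDUFB7*, an accessory complex I subunit, had 252.43, 230.98 and 242.52 TPM in WT and 314.71, 289.0 and 614.47 TPM in *fancj*, the highest fitted value of the set (0.94, SE 0.46, edgeR adjusted p = 0.38). It was above WT in all 3 libraries, and most so in replicate 3. *COX7C* (0.83) and *ATP5S* (0.82) came next. The longer genes *NDUFS1* (-0.18), *UQCRC2* (-0.15) and *ATP5F1B* (-0.12) were lowest, and *ATP5F1B* had 993.44, 955.91 and 771.57 TPM, all below the WT range of 1001.98 to 1036.75 TPM. *COX7A2* had 167.13, 189.31 and 355.62 TPM and its relative *COX7A2L* 75.32, 91.07 and 100.22 TPM, and their ratio was 0.282 in replicate 3 against 0.352 to 0.514 in the other 11 libraries. In TPM, 16 subunits lay above every WT library (14.1% of all genes did) and 1, *ATP5F1B*, below (8.82%). Of the mitochondrially encoded genes edgeR and DESeq2 called none, none had an unadjusted p under 0.05, and their median was 0.47, or 0.15 without replicate 3.

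Between the mutants, *NDUFV2* was the single subunit called, lower in *timeless* than in *ddx11* (-0.64, SE 0.15, edgeR adjusted p = 0.046), where 2.96% of all genes were called higher and 2.16% lower. Replicate numbers were taken to pair these libraries only because deviations of same-numbered libraries correlated. The same check did not pair *timeless* or *ddx11* with WT, nor *fancj* with *ddx11*, so the pairing is uncertain. With the replicate block 6 subunits were called (the share of all genes is not reported here). *SDHA*, *NDUFA4*, *COX6C* and *NDUFV2* were lower (edgeR adjusted p = 0.021, 0.016, 0.017 and 0.011). *NDUFV1* and *NDUFA8* were higher (0.63 and 0.56, edgeR adjusted p = 0.013 and 0.025). The 4 lower genes are on the shared chromosome and the 2 higher genes are not. Without the block, DESeq2 called 4 subunits, beside 1182 of all 11736 genes tested. No subunit was called by edgeR in any of the 6 fits that left out a library. The mitochondrially encoded genes were higher in *timeless* than in *ddx11* for 9 of 13 (median 1.39), or 13 of 13 with the block, but for 0 to 11 when a library was left out.

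Against *timeless*, edgeR called no subunit in *fancj* in either direction (0.417% of all genes were higher and 0.434% lower). At an unadjusted p under 0.05 there were 5 higher and 0 lower, and DESeq2 called 2, *SDHA* and *NDUFV2*. Of all 11995 genes tested, 1001 were higher and 735 lower at that limit, and DESeq2 called 847. The 7 subunits of the shared chromosome had a median log2 fold change of 1.14 here, beside a median of 0.46 over the 59 others. Without *fancj* replicate 3 these medians were 0.53 and -0.11. In TPM all 7 had every *fancj* library above every *timeless* library, as did 302 of the 709 other genes tested on that chromosome. Over all 11995 genes tested, 1629 did. Those 709 genes had a median log2 fold change of 0.65. Replicate numbers were taken to pair these libraries too, by the same check and with the same uncertainty. In the pairwise fit without the replicate block, edgeR called no mitochondrially encoded gene, and 7 had an unadjusted p under 0.05. With the block edgeR called 1, *ATP8* (-1.41, adjusted p = 0.048), and with all 12 libraries fitted together it called 6. DESeq2 called 6. The median of the mitochondrially encoded genes was -1.10, or -1.36 without *fancj* replicate 3. Against *ddx11*, edgeR and DESeq2 called no subunit in *fancj* (0.563% of all genes were higher and 0.219% lower by edgeR). At an unadjusted p under 0.05, 3 subunits were higher and 0 lower, beside 1071 and 592 of all 11897 genes tested. The median of the subunits was 0.54, or -0.02 without *fancj* replicate 3. The comparisons share libraries and are not independent of each other.

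The genes that build and serve the respiratory chain were taken from lists of assembly factors, of factors for mitochondrial DNA and RNA, and of regulators of mitochondrial biogenesis. In *timeless* against WT, edgeR called 4.31% of all genes tested higher and 3.89% lower. It called 0 of 39 assembly factors higher and 2 lower, with a median of -0.03. These were *TMEM70* (-0.85, adjusted p = 0.030), which assists assembly of the ATP synthase, and *NDUFAF6* (-0.65, adjusted p = 0.045), an assembly factor of complex I. Of 32 factors for mitochondrial DNA and RNA, 0 were called higher and 2, *MTERF3* and *MTPAP*, lower (median -0.05, from -0.81 to 0.57). At an unadjusted p under 0.05, 1 was higher and 6 lower, beside 1334 and 1194 of all 11653 genes tested. In TPM, 2 had every *timeless* library above every WT library (11.8% of all genes tested did) and 8 below (15.7%). *SSBP1* was among those above, with 249.62, 314.96 and 325.7 TPM in WT and 355.48, 443.78 and 460.9 TPM in *timeless*. *MTERF3*, described in mouse as a repressor of mitochondrial transcription, had 73.75, 88.05 and 82.75 TPM in WT and 48.79, 37.24 and 47.93 TPM in *timeless* (-0.81, SE 0.17, adjusted p = 0.022). *MTPAP*, the mitochondrial poly(A) polymerase, had 152.72 to 188.61 TPM in WT and 94.77 to 117.11 TPM in *timeless* (-0.65, adjusted p = 0.031). The 4 genes called lower in these lists lie on the same chromosome as the 7 subunits. That chromosome was singled out by the genes called lower in this comparison, these 4 among them. It carries 53.7% of the placed genes called lower. The part of any gene named here in the level of mitochondrially encoded RNA was not tested.

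*TFAM*, which packages mitochondrial DNA and starts its transcription, had 156.92, 169.81 and 176.61 TPM in WT and 161.8, 113.67 and 177.65 TPM in *timeless* (-0.08, adjusted p = 0.86). *NRF1*, a transcription factor of many nuclear subunit genes, had 20.65 to 26.08 TPM in WT and 15.25 to 19.4 TPM in *timeless* (-0.39, adjusted p = 0.22). None of the 12 tested regulators of mitochondrial biogenesis was called by edgeR or DESeq2 in *timeless* (1 higher and 1 lower at an unadjusted p under 0.05, median -0.20). In *ddx11* and in *fancj* edgeR and DESeq2 called none of these 3 lists' genes against WT. At an unadjusted p under 0.05 there were 1 higher and 4 lower in *ddx11* and 0 higher and 1 lower in *fancj*. Over all genes tested these counts were 698 and 574 of 11470 in *ddx11* and 1263 and 732 of 11824 in *fancj*.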

How the data were processed

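Poly(A) RNA of 12 DT40 libraries was sequenced by the authors, who aligned reads with Bowtie 2 to GRCg6a and quantified genes by RSEM with Ensembl 96 (tool versions are not given in the sources used here, nor whether counting used strand). The deposited expected counts are estimates that need not be whole and are not normalised for depth. The authors' TPM is corrected for gene length and sums to a fixed total, and the deposited FPKM values, scaled to length and depth, were not used. Genes that overlap or share reads are uncertain.

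Expected counts were rounded and tested in edgeR 4.0.16 (R 4.3.3; TMM, quasi-likelihood, 3 against 3 libraries), for genes averaging 1 TPM or more in either line, with Benjamini-Hochberg adjustment over all genes tested and calls at an adjusted p under 0.05. DESeq2 1.42.0 was an alternative. SE is the absolute log2 fold change over the square root of F. On simulated counts for *timeless* against WT (11653 genes, 200 changed), 96% were recovered and 5.88% of calls were false. The changed genes were drawn from well-counted genes, and all genes had the same simulated dispersion. Their fixed fold change was larger than that fitted for any subunit in *timeless* against WT. Recovery of smaller changes, such as those of the subunits, was not simulated. Exact permutation tests of 3 against 3 libraries reach p = 0.1 at the lowest and were not used.

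Groups and replicate numbers came from the labels. No 2 libraries of a line agreed within sampling noise (chi-square per degree of freedom of at least 13.7). Deviations of same-numbered libraries correlated above 0.1 in all 3 pairs for *fancj* and WT (0.109 to 0.23), *timeless* and *ddx11* (0.226 to 0.418) and *fancj* and *timeless* (0.159 to 0.367), and the numbers were taken to pair the libraries there. The other comparisons did not meet this limit. Their correlations were -0.0262 to 0.136 (*timeless* and WT), -0.194 to -0.00528 (*ddx11* and WT) and -0.0368 to 0.275 (*fancj* and *ddx11*). The check thus gave no pairing that held over all lines, and nothing in the sources says what a number stands for.

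The genes and lists were chosen with earlier results of these data known. Genes named were those called, the core subunits, the highest and lowest level per complex, the 3 highest and 3 lowest fold changes per mutant (10 TPM or more in a line), isoform pairs and, added after their values were seen, those of the chromosome lower in *timeless* and single genes that make up a short count. Chromosomes came from the RefSeq table of GRCg7b, by gene symbol or else by a synonym, and only where a single entry matched. Promoter motifs and sequences were not analysed here, and some results for single genes are not reported here.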

Additional observations from a re-analysis of the deposited data

How the results depend on the processing

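The count of nuclear subunits called in *timeless* against WT was 3 with DESeq2 size factors, with 1 TPM asked of both lines, with filterByExpr and without the mitochondrially encoded genes, and 4 under the Wald test, with no TPM limit and with the gene length offset. It was 1 when all 12 libraries were fitted together and 0 without the genes of the chromosome lower in *timeless*, a setting added after seeing the data that removes all 3 called genes, and it ranged from 0 to 3 when each replicate was left out in turn. With the replicate block it was 2, with *NDUFA4* at an adjusted p of 0.055. For *timeless* against *ddx11* the count of 1 became 4 under DESeq2's Wald test, 6 with the replicate block, and 0 with no TPM limit, with 1 TPM asked of both lines, with all 12 libraries together, without that chromosome and in every fit that left out a replicate (0 to 0). For *fancj* against *timeless* the count of 0 became 2 under the Wald test and 3 with all 12 libraries together. The block changed no other count of subunits called. In the other comparisons with WT the counts stayed at 0 under all settings. The median log2 fold change of the subunits ranged, over fits without a replicate, from -0.10 to 0.71 in *fancj* against WT, from -0.10 to 0.74 in *fancj* against *timeless* and from -0.02 to 0.80 in *fancj* against *ddx11*, lowest without *fancj* replicate 3 each time. The block and the gene length offset, the latter added after seeing the data, gave medians of 0.31 and 0.28 in *fancj* against WT. *COX6C* in *timeless* passed the threshold under DESeq2 (adjusted p = 0.012), with no TPM limit (0.048) and with the gene length offset (0.050 when rounded). The 12 of 13 mitochondrially encoded genes called in *timeless* against WT became 9 with the block and 10 with all 12 libraries together. In *fancj* against *timeless* 1 was called with the block and 6 with all 12 libraries together. The 3 libraries per line limit precision, and *ATP5S* has the fewest counts.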

Other observations

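Electron carriers and exchangers that work beside the respiratory chain were a further list of 21 genes. In *timeless* against WT edgeR called 0 of these 21 higher and 1 lower, beside 4.31% and 3.89% of all genes tested. The gene called was *COQ4*, of ubiquinone synthesis (log2 fold change -0.61, edgeR adjusted p = 0.033), which is not on the chromosome that carries the 7 lower subunits. It had 231.59, 207.17 and 235.44 TPM in WT and 158.58, 123.44 and 141.41 TPM in *timeless*. *CYCS*, cytochrome c, which shuttles electrons from complex III to complex IV, had 221.42, 295.01 and 293.94 TPM in WT and 171.71, 121.45 and 207.17 TPM in *timeless*. Its lines did not overlap, and the difference was not called (-0.63, SE 0.24, edgeR adjusted p = 0.16). *CYCS* lies on that chromosome. The adenine nucleotide carrier *SLC25A6* had 867.01 to 1024.54 TPM in WT and 881.38 to 1472.56 TPM in *timeless*, with its highest value in *timeless* replicate 2, the library in which its paralogue *SLC25A5* was lowest (641.84 TPM).

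The outer membrane channel *VDAC1* was lower in *ddx11* than in WT (-4.37, SE 0.92, edgeR adjusted p = 0.043) at a low level, with 0.19, 2.07 and 2.16 TPM in WT and 0.08, 0.05 and 0.1 TPM in *ddx11*. WT replicate 1 stood apart from the other WT libraries here. The abundant channel *VDAC2* had 555.15 to 575.96 TPM in WT and 493.85 to 576.01 TPM in *ddx11*.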
